A study of Mus musculus with 10 samples.

Results

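The integrated stress response and the stress response of the endoplasmic reticulum (ER) were followed through 10 genes, Atf4, Ddit3, Trib3, Asns, Psat1, Phgdh, Sesn2, Chac1, Hspa5, and Creld2. They were found by matching gene symbols to the Ensembl identifiers of the deposited table, and they are 10 of its 21939 genes. The symbols matched 11 rows, because Ddit3 also names the identifier ENSMUSG00000116429, which had 0 counts in all libraries. All values of Ddit3 below are those of ENSMUSG00000025408. All 10 members passed the filter on low counts, as did 13641 genes in all.

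RNA was taken from hepatocytes of male mice 12 days after injection of AAV8Cre, and sequenced with 1 library per mouse. The study used mice of 8 to 9 weeks, and its methods give a higher age for mice 12 days after induction of the knockout. AAV8Cre is an adeno-associated virus whose Cre recombinase is driven by the thyroxine-binding globulin promoter, which is active in hepatocytes, and the controls were injected with it too. The 10 libraries were 3 of control mice, 2 of Nrf2 KO mice, 2 of p65 KO mice, and 3 of DKO mice, all on a C57BL6/j background. The controls were wild-type by the study's description, without floxed alleles. Floxed alleles were those of Nrf2 in Nrf2 KO mice, of p65 (the Rela gene) in p65 KO mice, and of both genes in DKO mice. The deletion is therefore acute and limited to cells that the virus reaches and in which the promoter is active, and cells other than hepatocytes keep both genes.

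In the integrated stress response, kinases that sense a lack of amino acids, misfolded ER proteins, viral RNA, or a lack of heme phosphorylate the translation factor eIF2alpha, which lowers protein synthesis but favors translation of the transcription factor ATF4. ATF4 acts with partners such as CHOP (Ddit3) on genes of amino acid synthesis and transport, redox balance, and cell death. The ER has its own branches through ATF6 and IRE1 (Ern1), which raise the ER chaperones, and secretory cells such as hepatocytes depend on them. Because ATF4 is controlled in large part by translation and CHOP by both transcription and translation, mRNA counts show only a part of this response.

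To show the sequences in which the best known elements of these pathways lie, the 150 bases before the RefSeq transcription start were read for the members that passed a test below (Asns and Psat1) and for the ER proteins (Hspa5 and Creld2). They are written 5′ to 3′ on the strand of the gene, on GRCm39, and capitals mark the matches to the motifs given next. The Asns sequence lies at chr6:7693210-7693359 on the minus strand, that of Psat1 at chr19:15902424-15902573 on the minus strand, that of Hspa5 at chr2:34661952-34662101 on the plus strand, and that of Creld2 at chr15:88703699-88703848 on the plus strand.
Asns: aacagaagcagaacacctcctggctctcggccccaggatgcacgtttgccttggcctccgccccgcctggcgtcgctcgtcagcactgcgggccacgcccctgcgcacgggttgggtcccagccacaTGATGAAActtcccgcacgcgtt
Psat1: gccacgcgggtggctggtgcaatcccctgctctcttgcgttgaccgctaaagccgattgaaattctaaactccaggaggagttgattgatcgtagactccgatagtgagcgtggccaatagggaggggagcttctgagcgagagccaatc
Hspa5: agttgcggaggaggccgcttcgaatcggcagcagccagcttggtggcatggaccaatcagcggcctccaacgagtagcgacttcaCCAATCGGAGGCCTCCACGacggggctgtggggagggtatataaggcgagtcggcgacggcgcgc
Creld2: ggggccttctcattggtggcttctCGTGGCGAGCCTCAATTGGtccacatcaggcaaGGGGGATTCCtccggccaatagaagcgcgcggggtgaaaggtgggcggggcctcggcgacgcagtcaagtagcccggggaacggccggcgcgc
The capitals in Asns are a CARE, the element bound by ATF4 and C/EBP proteins, searched as TGATGNAA. The capitals in Hspa5 and the run nearer to the 5′ end in Creld2 are an ERSE, the ER stress response element, searched as CCAAT and CCACG separated by 9 bases, and the other run in Creld2 is a kappaB motif, the type of site bound by p65. The Psat1 stretch holds none of the motifs, and neither does the window of its other RefSeq start.

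Each motif was searched on both strands in windows from 250 bases before to 50 bases after the start. CARE was in the windows of 3 of the 10 members (Asns, Chac1, and Trib3, the last at base 15 after the start) and in 3.97% of all 32851 RefSeq promoters. ERSE was in 2 members (Hspa5 and Creld2) and in 0.119% of promoters, and the related ERSE-II, ATTGGNCCACG, was in 0 members and 0.0365% of promoters. An antioxidant response element (ARE), the type of site bound by Nrf2 and searched as TGACNNNGC, was in 3 members (Asns, Phgdh, and Sesn2) and in 12.4% of promoters, and the kappaB motif in 1 member (Creld2) and in 4.51%. No matches overlapped within a member's window. These are matches of letters in short windows and were not tested for binding.

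**Figure D1:**
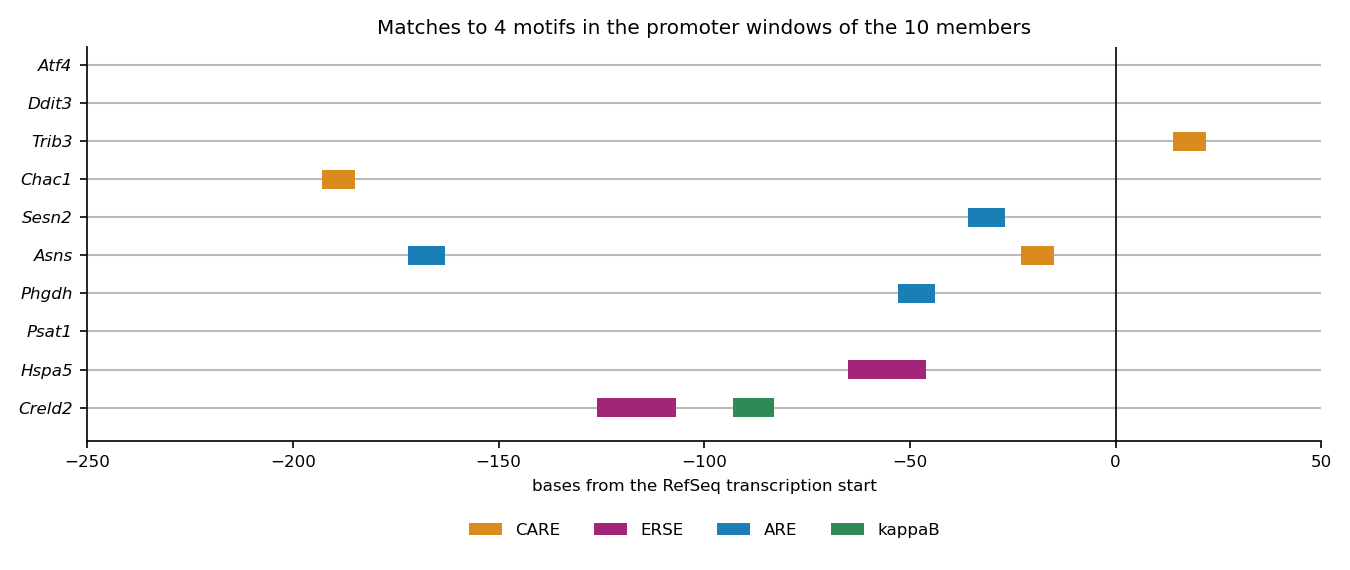
Positions of motif matches (colored bars, drawn to scale) in the promoter window of each member (grey line), with the distance in bases from the RefSeq transcription start on the horizontal axis. CARE lies in 3 windows, ARE in 3, ERSE in 2, and kappaB in 1, and Atf4, Ddit3, and Psat1 have none.

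Total counts per library ranged from 33707165 to 49897382. The targeted genes were not informative about the deletion: Nfe2l2, which encodes Nrf2, had 4739 and 5005 normalized counts in Nrf2 KO and 3434 to 5239.5 in DKO, against 1990.2 to 2318 in control (log2 fold changes 1.21 and 1.02, adjusted p = 0.00488 and 0.00347), and Rela had 1183 and 1209 in p65 KO against 1221 to 1276 in control. A gene-level count sums all exons and cannot show the loss of floxed exons, so this checks neither deletion. The 10 Nrf2 target genes examined lay below all control libraries in both Nrf2 KO libraries and in the 3 DKO libraries. Over all genes, 13.6% did so in Nrf2 KO and 13.2% in DKO. The study had already named several of these targets, such as Gstm1 and Gclc, as regulated in these same libraries. They are therefore no independent check of the deletion, which the study reported by RT-qPCR and Western blot of isolated liver cells. All 8 hepatocyte markers were detected in every group. Markers of some other cell types were higher in p65 KO than in control. All 10 Kupffer cell genes, all 6 genes of sinusoidal endothelial cells, and 4 of 6 stellate cell genes passed the test. So did 3 of 7 tested genes of monocytes and dendritic cells and 1 of 3 of neutrophils. Of T and NK cells, B cells, plasma cells, cholangiocytes, and erythroid cells 0 tested genes passed there, and all 5 erythroid genes were below 0. The summed normalized count of the Kupffer cell markers was 347 to 904 in control, 243 to 765 in Nrf2 KO, 4313 to 5841 in p65 KO, and 1574 to 2779 in DKO, and no marker of that list was at 0 in any group. For endothelial cells the sums were 456 to 1019 in control, 584 to 1179 in Nrf2 KO, 2266 to 3149 in p65 KO, and 1127 to 1584 in DKO, and for stellate cells, with 1 gene at 0 in control, 142 to 335, 133 to 209, 1539 to 1562, and 257 to 699. The sums of T and NK cell markers (70.9 to 150) and of erythroid cell markers (4730 to 5605) were highest in DKO.

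In control hepatocytes the members spanned a wide range of levels. Per kilobase of the canonical transcript, the mean normalized count (n = 3) was 4598 for Hspa5, the ER chaperone BiP, followed by 1916 for Atf4 and 941 for Creld2, an ER protein induced by ER stress. Ddit3 had 159, Trib3, a pseudokinase that restrains ATF4 and insulin signaling, had 146, Chac1, which degrades glutathione, had 102, and Sesn2, a stress-induced inhibitor of mTORC1, had 83.7. The biosynthetic enzymes were lowest, with 30.3 for Psat1 and 23.6 for Asns and 6.72 for Phgdh. The control libraries of Hspa5, Atf4, and Creld2 did not overlap with those of their neighbors in this order. From Ddit3 to Sesn2 each member overlapped with the next, within 56.2 to 264, and Psat1 overlapped with Asns, within 11.1 to 38.7. Phgdh lay below them all, at 4.08 to 10.4.

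**Figure D2:**
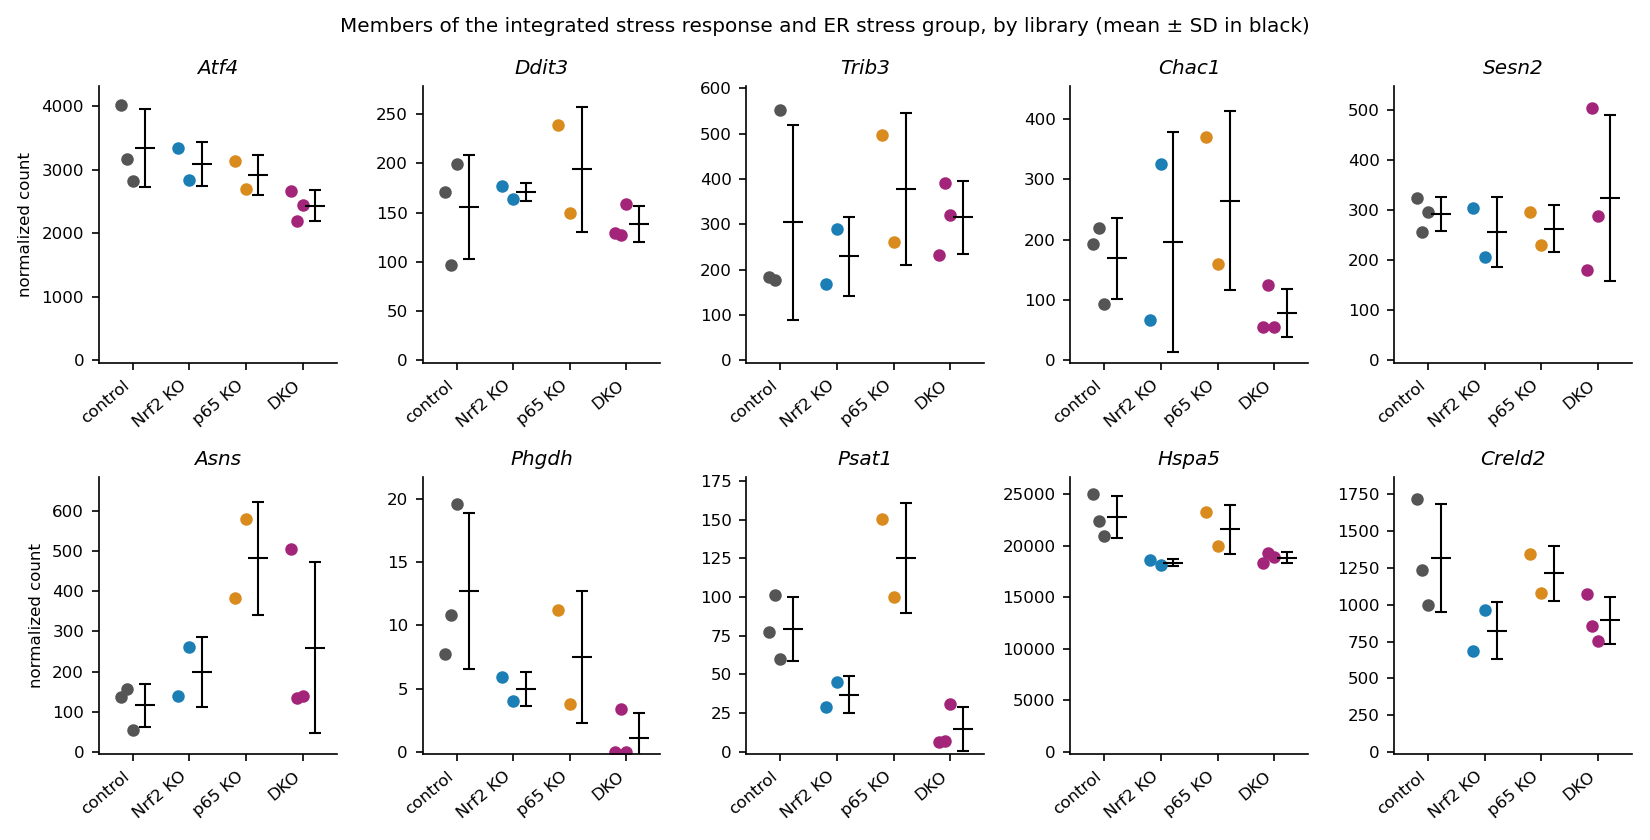
Normalized counts (vertical axes, linear and starting at 0) of the 10 members in each library, with 1 point per mouse and the group mean ± SD beside the points (n = 3 control, 2 Nrf2 KO, 2 p65 KO, 3 DKO). The DKO libraries of Psat1 sit between 6.31 and 30.9, below all others but the lower Nrf2 KO library, and both p65 KO libraries of Asns sit above all control libraries.

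Among the members, loss of both genes went with a lower level of Psat1, and loss of p65 alone with a higher level of Asns. Psat1, which carries out the second step of serine synthesis, was the only member that differed between the 4 genotypes in edgeR's quasi-likelihood test (adjusted p = 0.0210), where 13.9% of all genes passed. This call was lost without p65 KO replicate 1 (adjusted p = 0.0829). A gene is said to pass, or to rise or fall, where the Benjamini-Hochberg adjusted p over all 13641 genes is at most 0.05. Against control, 0 members passed in Nrf2 KO, 1 (Asns, higher) in p65 KO, and 1 (Psat1, lower) in DKO. Over all genes, 0.132% were higher and 0.594% lower in Nrf2 KO, 8.13% higher and 6.77% lower in p65 KO, and 2.61% higher and 2.84% lower in DKO. With 10 members, these counts are near that background. When libraries were scaled to equal totals instead of by TMM, the share of higher genes among those that passed moved from 54.6% to 82.1% in p65 KO and from 47.9% to 27.4% in DKO.

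The gene of Psat1 (ENSMUSG00000024640) lies at chr19:15882039-15924701 on the minus strand of GRCm39. It had normalized counts of 77.3, 101, and 59.8 in control, 28.7 and 45.3 in Nrf2 KO, 150.4 and 100.2 in p65 KO, and 6.31, 6.73, and 30.9 in DKO. The DKO libraries were all below the control and p65 KO libraries, and 1 of them fell within the Nrf2 KO range. The order of the group means was p65 KO, control, Nrf2 KO, and DKO, with overlap between p65 KO and control and between Nrf2 KO and DKO. In DKO against control, Psat1 fell by 2.44 on the log2 scale (95% interval -3.64 to -1.24, adjusted p = 0.0282), which is 5.43-fold lower. Against p65 KO, its level in DKO fell by 3.10 (-4.37 to -1.83, adjusted p = 0.0197), where 2.06% of all genes were lower and 2.05% higher.

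In Nrf2 KO the log2 fold change of Psat1 was -1.09 (-2.33 to 0.15, adjusted p = 0.614), and both libraries were below the 3 controls. The interaction, the change from p65 KO to DKO minus that from control to Nrf2 KO, was -2.00 on the log2 scale (-3.75 to -0.26, adjusted p = 0.308), so that the effect of losing Nrf2 was not shown to differ with p65. Without DKO replicate 3, the library with 30.9, it was -3.14 with an adjusted p of 0.0481, and the log2 fold changes of DKO were -3.58 against control and -4.23 against p65 KO. The difference between DKO and control no longer passed without control replicate 1, control replicate 2, DKO replicate 1, or DKO replicate 2 (adjusted p = 0.0799, 0.0844, 0.0754, and 0.0724), nor with only the 2 genotypes compared in the fit (0.0677). That between DKO and p65 KO was lost without either p65 KO library or DKO replicate 1 (0.109, 0.0677, and 0.0631).

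Phgdh, the enzyme of the first step of the same pathway, was close to the limit of detection. Its normalized counts were 7.73, 10.8, and 19.6 in control, 5.93 and 4.04 in Nrf2 KO, 11.2 and 3.78 in p65 KO, and 0, 3.37, and 0 in DKO. All DKO libraries lay below every other library. The DKO libraries held 3 counts in sum against 39 in control, a ratio of 0.0848 with a 95% interval of 0.0168 to 0.267 that covers counting error only. Across mice Phgdh did not pass (adjusted p = 0.0885), although it did with DESeq2 (0.0417), with limma at pseudocounts of 1 and 10 (0.0328 and 0.0435), and without DKO replicate 2 (0.0483).

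Asns, which makes asparagine and is a classical ATF4 target (ENSMUSG00000029752, chr6:7671667-7728461 on the minus strand of GRCm39), had normalized counts of 136, 157, and 54.2 in control, 138 and 261 in Nrf2 KO, 383 and 581 in p65 KO, and 506, 134, and 139.6 in DKO. Both p65 KO libraries were above all control and Nrf2 KO libraries, whereas DKO was split, with 1 library in the p65 KO range and the others in that of control. In p65 KO Asns rose by 2.06 on the log2 scale (0.78 to 3.35, adjusted p = 0.0381), or 4.18-fold. Leaving out any control or p65 KO library ended this call (adjusted p = 0.0582 to 0.160). In DKO its log2 fold change was 1.17 (-0.02 to 2.37, adjusted p = 0.229) with all libraries and 0.25 without DKO replicate 1. The p65 KO libraries are also those with the highest levels of Kupffer, endothelial, and stellate cell markers given above, and the part of those cells in the level of Asns was not tested. In RNA from bulk cells, more Asns per cell and more cells that express it cannot be told apart.

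Asns and Psat1 are both known to be induced by ATF4. Their log2 fold changes differed in sign in the genotypes that lack Nrf2, but of these values only that of Psat1 in DKO passed. In Nrf2 KO the log2 fold changes were 0.80 for Asns (95% interval -0.51 to 2.10, edgeR adjusted p = 0.768) and -1.09 for Psat1. In DKO they were 1.17 and -2.44, and that of Asns was 0.25 without DKO replicate 1. In p65 KO both were above 0, at 2.06 and 0.66. Whether the genes differ in their response was not tested.

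**Figure D3:**
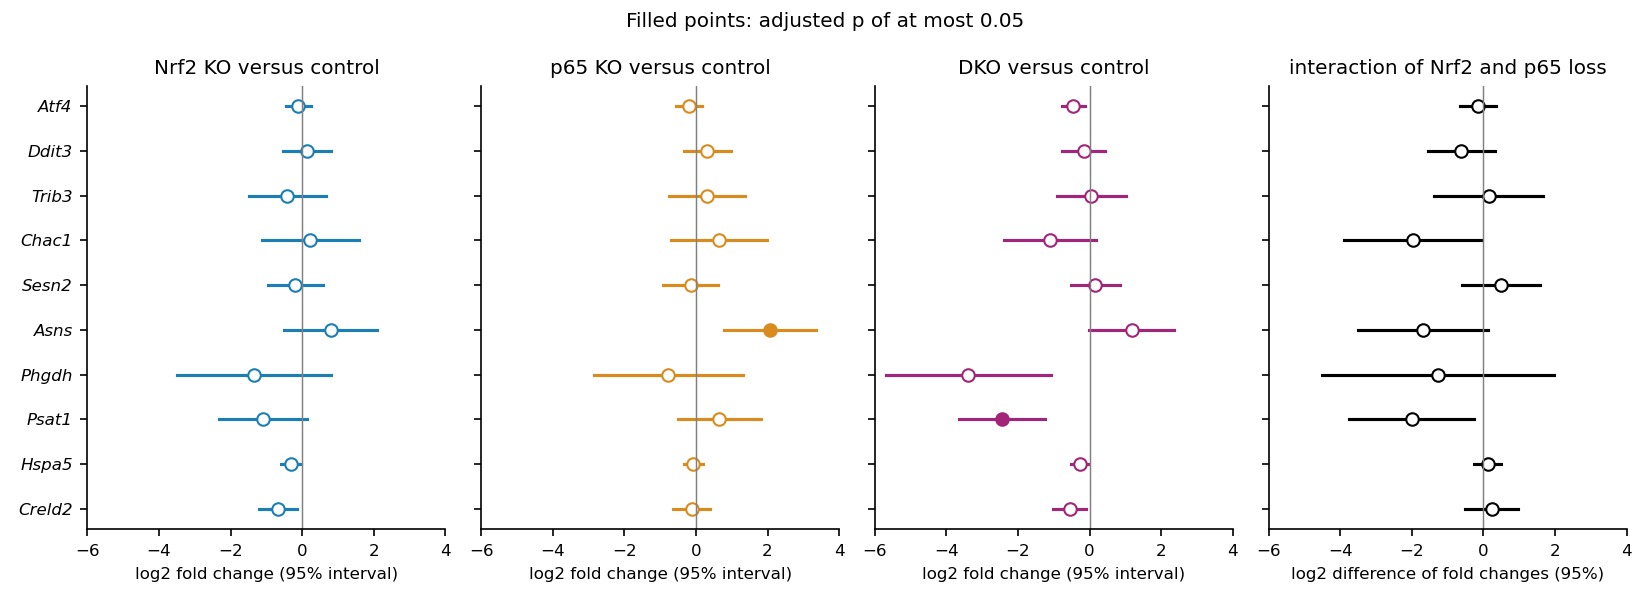
Log2 fold changes of the 10 members against control and the interaction (horizontal axes), with 95% intervals computed from the edgeR tests. Filled points mark an adjusted p of at most 0.05, which holds for Asns in p65 KO (2.06) and Psat1 in DKO (-2.44), and the intervals are widest for Phgdh and narrowest for Hspa5.

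Atf4 itself was among the steadier members. It had 4016, 3168, and 2820.5 normalized counts in control, 3338 and 2841 in Nrf2 KO, 3135 and 2697 in p65 KO, and 2669.8, 2187, and 2439.6 in DKO. Every DKO library was below every library of the other genotypes, by a narrow margin to p65 KO. The log2 fold change in DKO was -0.46 (-0.77 to -0.14, adjusted p = 0.0923), and Atf4 passed with DESeq2 (0.0425) and with equal totals (0.0498) but not in the test used here. In Nrf2 KO and p65 KO it was -0.11 and -0.19, with intervals that included 0.

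Among the genes downstream of ATF4, CHOP (Ddit3) had 171, 96.4, and 199 normalized counts in control, 177 and 164 in Nrf2 KO, 239 and 149 in p65 KO, and 129, 127, and 159 in DKO. The groups overlapped, and its log2 fold changes were 0.13 in Nrf2 KO (-0.53 to 0.79), 0.32 in p65 KO (-0.34 to 0.98), and -0.17 in DKO (-0.77 to 0.43). A change of the size that Asns showed in p65 KO lies outside all of these intervals.

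Trib3 had 184, 177, and 553 in control, 168 and 290.2 in Nrf2 KO, 496 and 259.9 in p65 KO, and 232, 392, and 322 in DKO. The control libraries held both one of the lowest values and the highest one, so the groups overlapped. Its log2 fold change was -0.41 in Nrf2 KO, while that in p65 KO was 0.30 and that in DKO 0.044. Without control replicate 3, the library with 553, these values were 0.34, 1.06, and 0.80, and none passed in either case.

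Sesn2 had 324, 257, and 295 normalized counts in control, 305 and 206 in Nrf2 KO, 296 and 229.7 in p65 KO, and 179.9, 504, and 288 in DKO. The lowest and the highest library were thus both DKO, and DKO replicate 2, the highest for Sesn2, was not the library that was high for Asns. Without it the log2 fold change against control turned from 0.15 to -0.32, and neither value passed. Chac1 had 193, 220.3, and 93.4 in control, 67.2 and 325 in Nrf2 KO, 369.8 and 159.7 in p65 KO, and 54.7, 125, and 56.1 in DKO. All DKO libraries were below both p65 KO libraries, with a log2 fold change of -1.75 (-3.13 to -0.38, adjusted p = 0.138). This difference passed with DESeq2 (adjusted p = 0.0355). The Nrf2 KO libraries held almost the whole range of Chac1, and the log2 fold change against control was 0.94 without the lower and -1.33 without the higher of them.

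The ER members had lower means in both genotypes that lack Nrf2, with differences that did not pass. Hspa5 had 24987, 22385, and 20954 normalized counts in control, 18611 and 18089.9 in Nrf2 KO, 23225 and 19915 in p65 KO, and 18315, 19301, and 18919 in DKO. The Nrf2 KO and DKO libraries were below all control and p65 KO libraries, and p65 KO overlapped with control. The log2 fold change was -0.31 in Nrf2 KO (-0.58 to -0.04, adjusted p = 0.431) and -0.27 in DKO (-0.51 to -0.04, adjusted p = 0.166), so that a change of 1 on the log2 scale lies outside both intervals.

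Creld2 had 1722, 1237, and 999 in control, 686 and 963 in Nrf2 KO, 1345 and 1082 in p65 KO, and 1071, 856, and 756 in DKO. Both Nrf2 KO libraries and 2 of the DKO libraries were below all control libraries. Its log2 fold change was -0.68 in Nrf2 KO (-1.21 to -0.15, adjusted p = 0.358) and -0.56 in DKO (-1.03 to -0.09, adjusted p = 0.153). In p65 KO the value was -0.12 (-0.64 to 0.40). Its interaction was 0.24 and that of Hspa5 0.12 on the log2 scale, with adjusted p-values of 0.796 and 0.804.

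Over the 10 members, the median log2 fold change was -0.25 for Nrf2 KO, 0.11 for p65 KO, and -0.36 for DKO. Over all genes it was 0.0018 for Nrf2 KO, 0.00090 for p65 KO, and 0.025 for DKO. In Nrf2 KO 4 members (Psat1, Phgdh, Hspa5, and Creld2) were below all control libraries, as were 13.6% of all genes, and 0 were above them, as were 14.8%. In p65 KO 1 member (Asns) was above and 0 below, with 26.2% of all genes above and 23.8% below. In DKO 4 members (Atf4, Psat1, Phgdh, and Hspa5) were below and 0 above, with 13.2% of all genes on either side. No member passed for Nrf2 KO against control, for DKO against Nrf2 KO (where 0.513% of all genes passed), or for the interaction (0.469%) in edgeR. At an unadjusted p of 0.05 these comparisons counted 2 members (Hspa5 and Creld2), 1 (Psat1), and 2 (Psat1 and Chac1), and DESeq2 and limma also gave 0 members past the adjusted threshold in each of them.

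The genes whose profile over the 10 libraries was most like that of Psat1 were sought among the 10185 genes whose normalized counts averaged 50 or more. They were Gadd45a, a stress-induced growth arrest gene (r = 0.947), Ubxn4, a protein of ER-associated degradation (r = 0.947), Nme6 (r = 0.940), Irf2bpl (r = 0.935), and Mlec, an ER lectin (r = 0.933). These are Pearson correlations of log2(normalized count + 1) that share libraries and genotypes, and they are given as a description. Gadd45a had 445, 302, and 329 normalized counts in control, 279.8 and 316 in Nrf2 KO, 419.6 and 434 in p65 KO, and 108, 109, and 259 in DKO. As with Psat1, DKO replicate 3 was the highest of the DKO libraries. Gadd45a is also a gene of the pathway lists below. Mlec had 3967, 3977, and 3679 in control, 2949 and 2865 in Nrf2 KO, 4721 and 4396 in p65 KO, and 2434, 2587, and 3028 in DKO.

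**Figure D4:**
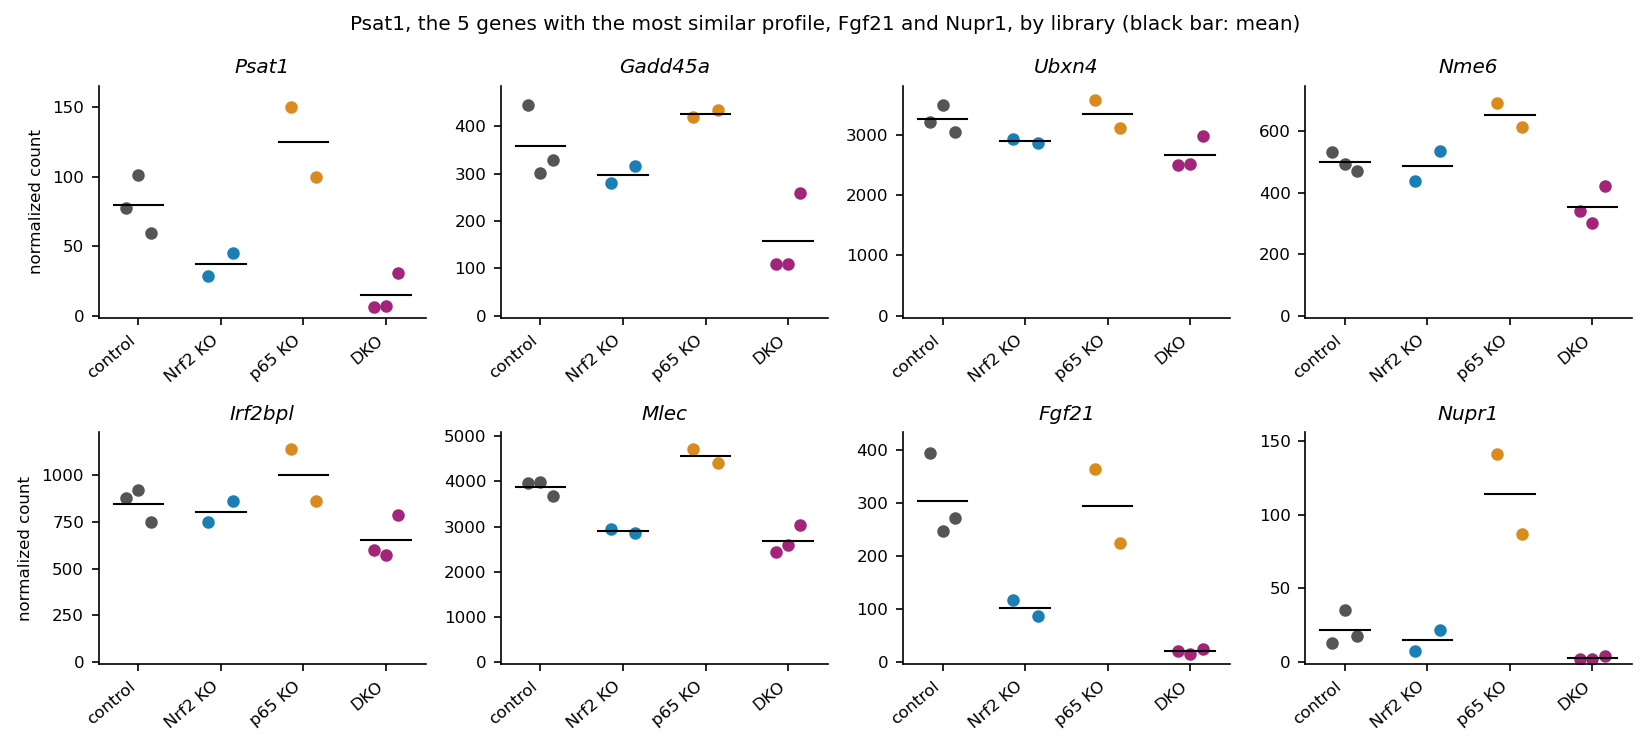
Normalized counts (vertical axes, linear and starting at 0) of Psat1, of the 5 genes with the most similar profile, and of Fgf21 and Nupr1 in each library, with black bars for group means. In DKO replicate 3 Psat1 has 30.9 and Gadd45a 259, the highest DKO value of each, and the 3 DKO libraries of Fgf21 lie between 15.7 and 25.2.

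The wider pathway was described with 161 genes in 13 lists, of which 159 were tested and none is a member. Counts of genes that passed against control were 0 higher and 11 lower for Nrf2 KO, 11 higher and 17 lower for p65 KO, and 4 higher and 15 lower for DKO, beside the background percentages given above. The 10 Nrf2 targets, a set known to depend on Nrf2, gave 7 of the lower genes for Nrf2 KO, 4 for p65 KO, and 10 for DKO. Gstm1, a glutathione transferase, was at -2.96 in Nrf2 KO and at -3.27 in DKO on the log2 scale against control. Gclc, which limits glutathione synthesis, had -1.33 in p65 KO and -2.20 in DKO. All 4 values passed, also without each library in turn.

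Of the secreted factors of the response, Fgf21, a liver hormone induced by fasting and by ATF4, fell in Nrf2 KO and in DKO. Fgf21 had already been named by the study as a top gene of DKO in these libraries. Its normalized counts were 394, 248, and 273 in control, 117 and 88.1 in Nrf2 KO, 366 and 226 in p65 KO, and 22.1, 15.7, and 25.2 in DKO. The groups without Nrf2 did not overlap with the others or with each other, and p65 KO overlapped with control. The log2 fold change was -3.85 in DKO (adjusted p = 0.000117) and -2.28 from Nrf2 KO to DKO (adjusted p = 0.0111). In Nrf2 KO it was -1.58 (adjusted p = 0.0411), a call that was lost without each of 6 of the 10 libraries (adjusted p = 0.0587 to 0.497), whereas the call in DKO held without each of the 10. The interaction was -2.23 (adjusted p = 0.0520).

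Among the 14 transcription factors and regulators, Gadd45a in DKO fell by 1.18 on the log2 scale (adjusted p = 0.0481), a call that was lost in 9 of the 10 fits that each left out 1 library (adjusted p = 0.0669 to 0.165). In p65 KO Atf5, an ATF4-related factor, fell by 0.88 (adjusted p = 0.0367), and the autophagy receptor Sqstm1 fell by 0.50 (adjusted p = 0.0397), calls that held in 4 and 3 of those 10 fits. Nupr1, a small stress-induced chromatin protein that was named after its values had been seen because its mean was under 50 counts, had 13.3, 35.4, and 17.7 in control, 7.91 and 21.8 in Nrf2 KO, 141 and 87.0 in p65 KO, and 2.10, 2.24, and 4.58 in DKO. Nupr1 rose in p65 KO by 2.35 (adjusted p = 0.0169), and in DKO it fell by 2.86 (adjusted p = 0.0278), and each call held in 7 of the 10 fits. Its interaction was -4.66 with an adjusted p of 0.0493, a call that was lost in 9 of the 10 fits. No other gene of the lists passed for the interaction in edgeR. With DESeq2 6 genes passed and with equal totals 4, Nupr1 among both. With a filter at a mean of 10 counts per library 0 passed. Of the 16 genes of eIF2alpha phosphorylation, Ppp1r15b, a constitutive subunit of the eIF2alpha phosphatase, rose in p65 KO by 0.55 (adjusted p = 0.0145), in 9 of the 10 fits too, and the others did not pass against control in edgeR. DESeq2 called 2 of the list higher in p65 KO and 1 lower in DKO, and with equal totals 3 passed in p65 KO.

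Of the 9 amino acid transporters 3 rose in p65 KO, 1 fell in Nrf2 KO, and 1 rose in DKO. The glycine transporter gene Slc6a9 had 1550.4, 1420.0, and 1336 in control, 795 and 837 in Nrf2 KO, 2099 and 1864 in p65 KO, and 1146, 1150.1, and 1409 in DKO. Both Nrf2 KO libraries were the lowest and both p65 KO libraries the highest. Slc6a9 fell by 0.81 in Nrf2 KO (adjusted p = 0.0175) and rose by 0.47 in p65 KO (adjusted p = 0.0314), which held in 6 and 5 of the 10 fits that each left out 1 library. Slc43a1, which carries large neutral amino acids, rose by 0.83 in p65 KO (adjusted p = 0.0431) and by 1.31 in DKO (adjusted p = 0.00880), which held in 3 and in 10 of those fits. The third transporter in p65 KO was Slc7a1, named after its values had been seen, with 70.1 and 33.1 counts in p65 KO and at most 7.87 in control.

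Of 14 enzymes of serine, proline, and one-carbon metabolism, 2 rose and 2 fell in p65 KO, and 2 rose in DKO. Psph, the last enzyme of serine synthesis, had 233, 216, and 199 in control, 248 and 196 in Nrf2 KO, 148 and 134 in p65 KO, and 176, 151, and 151 in DKO, so that it was lowest in p65 KO, where Psat1 was highest. Psph in p65 KO fell by 0.61 (adjusted p = 0.0442), and its log2 fold change in DKO was -0.44 (adjusted p = 0.137). Sds, which degrades serine, had 3141, 2211, and 5669 in control and 7652, 12669, and 7824 in DKO, a rise of 1.35 (adjusted p = 0.0363). These calls held in 3 and 4 of the 10 fits that each left out 1 library. Gpt2, the mitochondrial alanine aminotransferase and an ATF4 target, rose by 0.91 in p65 KO (adjusted p = 0.00624) and by 0.74 in DKO (adjusted p = 0.0187), in 10 and 8 of those fits. Cbs, of cysteine synthesis, fell by 0.53 in p65 KO (adjusted p = 0.0307), in 6 of them. Mthfd1l, a mitochondrial folate enzyme named after its values had been seen, rose in p65 KO, with 75.2 and 144 counts against 23.3 to 38.7 in control.

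The aminoacyl-tRNA synthetases, a large group of ATF4 targets, gave 1 of 17 genes that passed in p65 KO, Tars1, which fell by 0.77 (adjusted p = 0.00685), and 0 in Nrf2 KO and in DKO. The call of Tars1 held without each library in turn. Their median log2 fold change was 0.012 for Nrf2 KO, 0.029 for p65 KO, and -0.22 for DKO, with 13 of 17 below 0 in DKO. At an unadjusted p of 0.05, edgeR gave 4 of 17 in DKO and 0 in Nrf2 KO, and DESeq2 gave 1 and 0 past the adjusted threshold. With equal totals 3 fell in DKO.

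**Figure D5:**
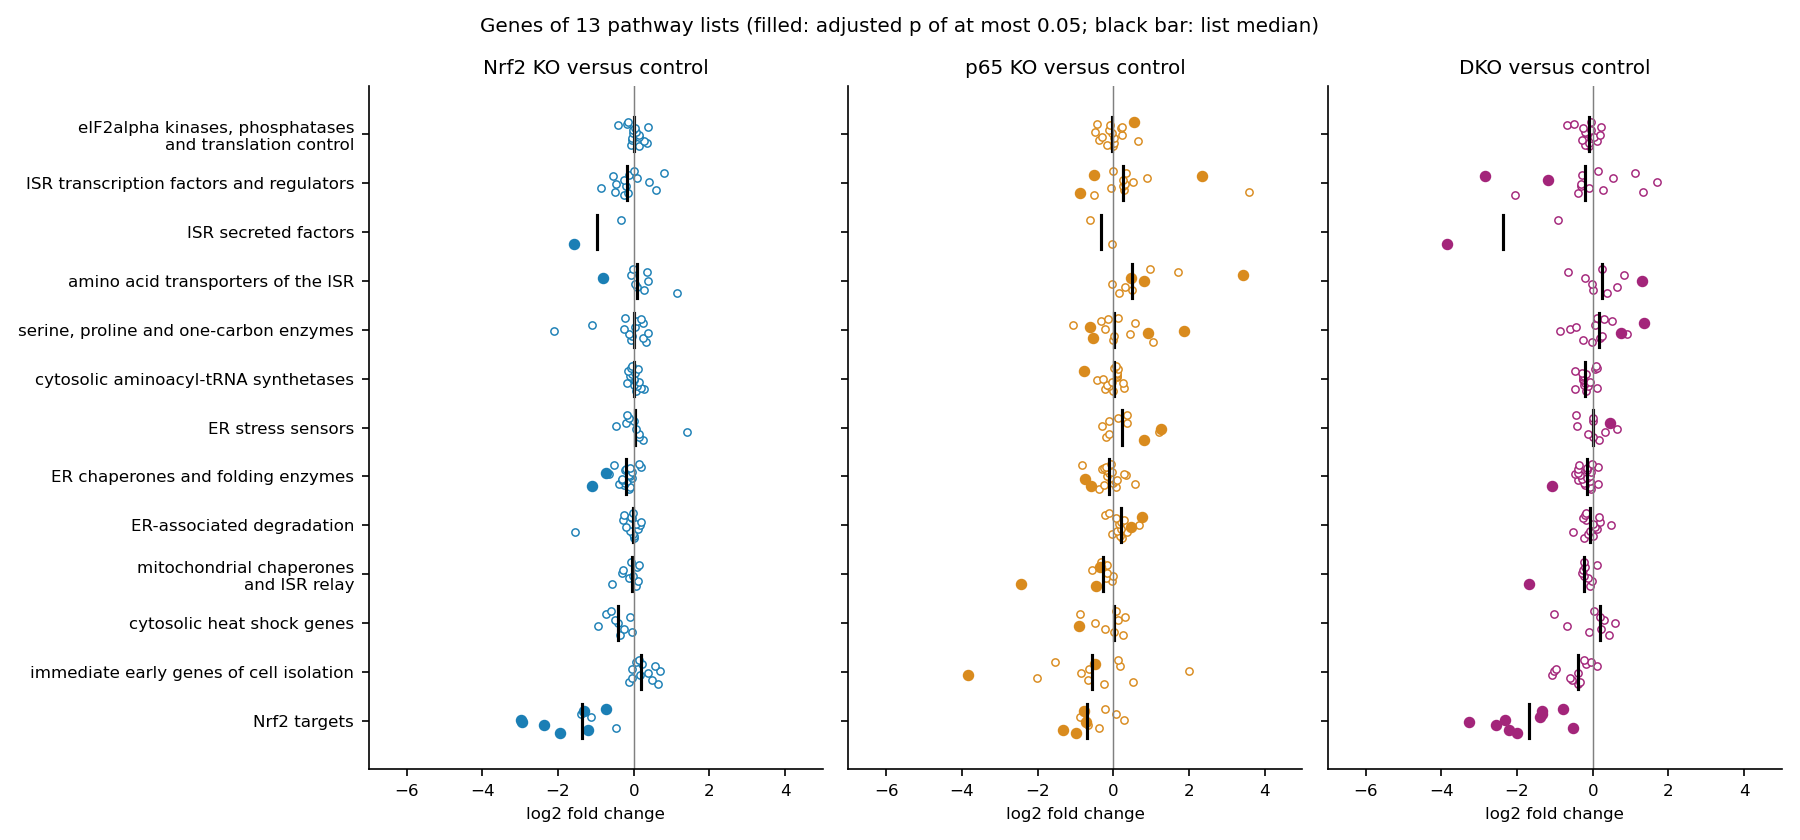
Log2 fold changes against control (horizontal axes) of the tested genes of the 13 pathway lists, with 1 point per gene, filled at an adjusted p of at most 0.05, and a black bar at each list's median. The Nrf2 targets lie to the left in Nrf2 KO (median -1.36) and DKO (-1.70), and the bars of the aminoacyl-tRNA synthetases and of the ER lists lie within 0.25 of 0.

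On the ER side, 3 genes of sensors and ER-resident transcription factors passed against control. Atf6, the membrane-bound factor that induces ER chaperones, had 2028, 2278, and 2381 in control, 2468 and 2861 in Nrf2 KO, 4366 and 3462 in p65 KO, and 2123, 2692, and 2699 in DKO. It rose in p65 KO by 0.81 (adjusted p = 0.00660), as did its relative Creb3l2 by 1.27 (adjusted p = 0.0365), whereas Ern1, which encodes IRE1, rose in DKO by 0.47 (adjusted p = 0.0301). These were 2 of 10 sensors in p65 KO and 1 of 10 in DKO. Atf6 held in 9 of the 10 fits that each left out 1 library and Creb3l2 and Ern1 in 5, and without p65 KO replicate 1 Creb3l2 was at 0.40. With equal totals the sensors of DKO counted 0 higher and 1 lower. Among 21 ER chaperones and folding enzymes 0 rose in any of the 3 comparisons with control by edgeR, DESeq2, or limma, and the genes that fell by edgeR were 2 for Nrf2 KO, 2 for p65 KO, and 1 for DKO. With equal totals the p65 KO counts of that list became 1 higher and 0 lower.

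Creld1, the paralog of Creld2, fell in all 3 comparisons in edgeR. Its normalized counts were 1980.0, 1881, and 1499 in control, 859 and 799 in Nrf2 KO, 1241 and 1155 in p65 KO, and 1054, 778, and 714 in DKO, with every knockout library below every control library. Its log2 fold change was -1.11 in Nrf2 KO (adjusted p = 0.0179), -0.58 in p65 KO (adjusted p = 0.0485), and -1.07 in DKO (adjusted p = 0.00418), calls that held in 6, 3, and 10 of the 10 fits that each left out 1 library. Of 4 other tests, scalings, and filters, the call in p65 KO held in 1 and those in Nrf2 KO and DKO in all 4. Manf, a secreted ER stress protein, in Nrf2 KO fell by 0.72 (adjusted p = 0.0179), and its log2 fold change in DKO was -0.39 (adjusted p = 0.0529). Fkbp14 in p65 KO fell by 0.74 (adjusted p = 0.0435). These held in 6 and 3 of those fits. The list's median was -0.21 for Nrf2 KO, -0.099 for p65 KO (0.074 with equal totals), and -0.15 for DKO, with 19 of 21 genes below 0 in Nrf2 KO and 19 of 21 in DKO, comparisons that share the control libraries. From p65 KO to DKO 2 chaperones fell, Hyou1 (log2 fold change -0.76, adjusted p = 0.0396) and Hspa13 (-0.67, adjusted p = 0.0197), both named after their values had been seen.

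In ER-associated degradation 2 of 15 genes rose in p65 KO and 0 passed in Nrf2 KO or DKO. Edem3 rose by 0.47 (adjusted p = 0.0400) and Syvn1, the ubiquitin ligase HRD1, by 0.75 (adjusted p = 0.0479), with 5268 in 1 p65 KO library and 2642 in the other against 2184 to 2537 in control. Without that library, p65 KO replicate 1, the log2 fold change of Syvn1 was 0.17, and the calls held in 4 (Edem3) and 2 (Syvn1) of the 10 fits that each left out 1 library. Over all lists, 11 of 159 tested genes rose and 17 fell in p65 KO, where 8.13% of all genes were higher and 6.77% lower. The genes that rose were Atf6, Creb3l2, Edem3, Syvn1, Slc6a9, Slc43a1, Slc7a1, Gpt2, Mthfd1l, Ppp1r15b, and Nupr1. The markers of Kupffer, endothelial, and stellate cells were at their highest in the same libraries, and the part of those cells was not tested.

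In the mitochondrial branch 0 genes rose and Clpx fell. From these same libraries the study had already named Clpx as a top gene of p65 KO. Clpx, the unfoldase of the matrix protease ClpXP, had 8909.5, 9831, and 7825 in control, 7332 and 4522 in Nrf2 KO, 1639.7 and 1644 in p65 KO, and 3179, 2909.5, and 2168 in DKO. The p65 KO libraries were lowest, followed by those of DKO, and neither overlapped with control. The log2 fold change was -2.43 in p65 KO (adjusted p = 0.000636) and -1.69 in DKO (adjusted p = 0.00133), and both calls held without each library in turn. Its partner Clpp in p65 KO fell by 0.46 (adjusted p = 0.0305), and Lonp1, a matrix protease named after its values had been seen, fell by 0.34 (adjusted p = 0.0472), making 3 of 10 genes lower in p65 KO and 1 of 10 in DKO by edgeR. DESeq2 called 5 and 2 lower, where it called 1241 and 712 of all genes lower, against 923 and 387 in edgeR. With equal totals 1 passed in p65 KO, where 355 of all genes were lower.

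Since hepatocytes were isolated by perfusion and centrifugation, genes that respond to isolation were counted too. In p65 KO 2 of 12 immediate early genes passed, Fosb (log2 fold change -3.85, adjusted p = 0.0237) and Jund (-0.48, adjusted p = 0.0467), as did 1 of 9 cytosolic heat shock genes, Hsp90aa1 (-0.90, adjusted p = 0.0339). They held in 7, 1, and 7 of the 10 fits that each left out 1 library, and Fosb was at -6.57 without p65 KO replicate 1 and at -2.94 without p65 KO replicate 2. In Nrf2 KO and DKO 0 genes of either list passed against control in edgeR. At an unadjusted p of 0.05 the immediate early genes gave 0 and 1 and the heat shock genes 3 and 3, and DESeq2 called 0 and 1 immediate early genes and 1 and 2 heat shock genes. The median log2 fold change of the immediate early genes was 0.18 in Nrf2 KO (9 of 12 above 0) and -0.39 in DKO (11 of 12 below 0). From Nrf2 KO to DKO it was -0.66, with 12 of 12 below 0 and 0 past the test. That of the heat shock genes was -0.42 in Nrf2 KO (9 of 9 below 0) and 0.19 in DKO (6 of 9 above 0). Fosb spread widely within groups, from 90.6 to 448 in control, and the part of isolation in the levels of the members was not tested.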

How the data were processed

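Poly(A) RNA of 10 hepatocyte preparations was sequenced, with 1 mouse per library. Per the labels and the study's methods, the authors quantified reads with Salmon (1.10.3) against GRCm39 with GENCODE M33 and tested genotypes with DESeq2 (1.42.1). The table deposited by the authors is named as normalized but was treated as estimated counts: its values are whole numbers with unequal totals (33707165 to 49897382). Of 21939 genes, 6302 were at 0 in all libraries.

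Genes with at least 10 counts over all libraries (13641) were fitted in edgeR (4.0.16) in R (4.3.3) with TMM scaling, quasi-likelihood tests, and the 4 genotypes in 1 model. Normalized counts are counts scaled by TMM to the mean effective library size. Adjusted p-values are Benjamini-Hochberg values over all genes tested, and a gene passes at 0.05 or less. The code was tested on simulated counts. Intervals cover 95%.

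Besides the members, the text names from each list, comparison with control, and direction up to 2 genes that passed with the lowest adjusted p and a mean of at least 50 normalized counts, Nfe2l2 and Rela, and the 5 genes most correlated with the member of lowest p. Other genes are marked. Members, lists, and tests were chosen with earlier results of these data known. DESeq2 (1.42.0), limma (3.58.1), other scalings and filters, a replicate block, and leaving out each library were alternatives. Symbols are from GENCODE M39, which held 21926 of the identifiers. Promoters are RefSeq windows of a GRCm38.p6 table, placed on GRCm39 by exact match.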

Additional observations from a re-analysis of the deposited data

Results flagged for a closer look

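For Nupr1, a stress-induced chromatin protein, the interaction of losing Nrf2 and p65 was -4.66 on the log2 scale (95% interval -6.56 to -2.75). It passed narrowly with all libraries (edgeR adjusted p = 0.0493). Its normalized counts were 13.3, 35.4, and 17.7 in control against 7.91 and 21.8 in Nrf2 KO, and 141 and 87.0 in p65 KO against 2.10, 2.24, and 4.58 in DKO. The call was lost in 9 of the 10 fits that each left out 1 library, with log2 values from -5.19 to -3.74 and adjusted p-values up to 0.294, and also with the filter at a mean of 10 counts per library (adjusted p = 0.0540) and with the replicate block (0.119), and it held with DESeq2 (0.000342). Nupr1 had a mean under 50 normalized counts, with 2, 2, and 4 counts in the DKO libraries, and was named after its values had been seen. Markers of Kupffer, endothelial, and stellate cells were also highest in p65 KO, and the part of those cells in the level of Nupr1 was not tested. Of the 159 pathway genes tested, 1 passed for the interaction in edgeR, 6 with DESeq2, 4 with equal totals, and 0 with that filter.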

How the results depend on the processing

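Of the values of the members, 1115 of 1184 alternatives kept direction and side of the threshold, 15 lost and 9 gained a call, and 45 reversed a value that had not passed. Most of the 60 results behind them had not passed to begin with and could not lose a call. The 15 losses all fell on Asns in p65 KO against control and on Psat1 in DKO against control and against p65 KO. Members that passed numbered 1 in p65 KO against control (0 with the replicate block), 1 in DKO against control (3 with DESeq2, 2 with equal totals, 2 with limma at a pseudocount of 1, 2 at 10, 0 with only the genotypes compared), and 1 in DKO against p65 KO (2 with DESeq2, 2 with equal totals, 0 with only the genotypes compared). Leaving out each library gave 0 to 1 members in p65 KO against control, 0 to 1 in DKO against control, 0 to 1 in DKO against p65 KO, 0 to 1 for the interaction, and 0 to 2 for any difference. Where a genotype was left with 1 library, that library was assumed to vary like the others. The cause of these changes was not tested.

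With equal totals, which brought the median of all genes to 0.18 in p65 KO against control, -0.27 in DKO against p65 KO, and -0.26 for the interaction, Trib3 reached -0.028 in DKO against control and -0.11 for the interaction, Sesn2 0.029 and Creld2 0.060 in p65 KO, Creld2 -0.030 for the interaction, and Hspa5 0.10 in p65 KO, -0.058 in DKO against Nrf2 KO, and -0.16 for the interaction. With limma, Chac1 in Nrf2 KO was -0.10 and -0.073 at pseudocounts of 1 and 10. With the replicate block, it was -0.15, and Trib3 was 0.035 in Nrf2 KO and -0.59 for the interaction.

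Values that reversed without a library had these log2 ranges. In Nrf2 KO against control they were -0.23 to 0.045 for Atf4, -0.12 to 0.35 for Ddit3, -0.86 to 0.34 for Trib3, -0.50 to 0.062 for Sesn2, and -1.33 to 0.94 for Chac1. In p65 KO against control they were -0.058 to 0.62 for Ddit3, -0.23 to 1.06 for Trib3, -0.34 to 0.020 for Sesn2, -0.078 to 1.13 for Chac1, -0.19 to 0.029 for Hspa5, and -0.29 to 0.12 for Creld2. In DKO against control they were -0.42 to 0.050 for Ddit3, -0.23 to 0.80 for Trib3, and -0.32 to 0.45 for Sesn2. In DKO against Nrf2 KO they were -0.55 to 0.91 for Asns, -0.12 to 0.65 for Sesn2, -2.05 to 0.22 for Chac1, and -0.11 to 0.38 for Creld2. In DKO against p65 KO they were -0.65 to 0.28 for Trib3 and -0.17 to 0.60 for Sesn2. For the interaction they were -0.60 to 0.69 for Trib3 and -0.0013 to 0.50 for Creld2.

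Over all genes, the number that passed in Nrf2 KO was 99 (320 with DESeq2, 60 with the block), in p65 KO 2032 (2695 with DESeq2, 1178 with the block), in DKO 743 (1446 with DESeq2, 454 with the block, 417 with only the genotypes compared), in DKO against Nrf2 KO 70 (504, 39, and 20, and 149 with no filter), and in DKO against p65 KO 561 (1291, 294, and 116, and 1753 with equal totals). For the interaction it was 64 (400 with DESeq2, 140 with equal totals, 143 with no filter), and for any difference 1901 (3337 with DESeq2, 1070 with the block). Without 1 library these counts ranged from 18 (Nrf2 KO replicate 2 left out) to 119 in Nrf2 KO, 452 (p65 KO replicate 1) to 2139 in p65 KO, 229 (control replicate 1) to 663 in DKO, 18 (Nrf2 KO replicate 2) to 95 in DKO against Nrf2 KO, 85 (p65 KO replicate 1) to 610 in DKO against p65 KO, 8 (Nrf2 KO replicate 2) to 127 for the interaction, and 688 (p65 KO replicate 1) to 1860 for any difference. With equal totals the share of higher genes went from 49.9% to 7.7% in DKO against p65 KO, from 56.2% to 19.3% for the interaction, and from 62.9% to 48.2% in DKO against Nrf2 KO, and with DESeq2 from 18.2% to 28.4% in Nrf2 KO.

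Deviations of libraries with the same replicate number correlated at -0.232 to 0.113 (13 pairs) and of others at -0.17 to 0.232 (24 pairs). Deviations were taken from the genotype mean, so the libraries of Nrf2 KO, and those of p65 KO, mirror each other by construction. These ranges therefore cannot decide whether the replicate numbers pair the mice. With the replicate block, Asns in p65 KO had an adjusted p of 0.0660. Of 615 alternatives for 41 results of named pathway genes, 435 kept the call, 180 lost it, and 0 reversed. For these genes, the block and the leave-outs were chosen after seeing the data.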
